A study of Mus musculus with 2 samples.

Results

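Cd163l1 (ENSMUSG00000025461, Scart1) and 5830411N06Rik (ENSMUSG00000054672, Scart2) were followed in single γδ T cells of mouse colon tumor (TIL) and normal colon tissue (IEL). These 2 of the 32285 genes in the deposited count matrices were chosen by name, as the Scart receptor pair. The study profiled 1 TIL and 1 IEL library with the 10x Genomics 3′ v3 chemistry. The mice were of the C57BL/6J strain, 18 to 20 weeks old, and the cells of both are labelled γδ T lymphocytes. The labels name no treatment, transgene or way in which the tumors were raised, and they do not say how many animals were pooled. The libraries were set side by side to compare γδ T cells of tumor with those of normal colon. With 1 library per tissue no difference between tissues has a replicate check, so values are given with 95% intervals that cover counting error only.

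Scart1 and Scart2 are membrane proteins built from scavenger receptor cysteine-rich (SRCR) domains, the domain family of CD163, CD5 and CD6. In the mouse they are known from γδ T cells that make interleukin 17 (IL-17). There, Scart1 is known as a marker of tissue-resident Vγ6 cells and Scart2 as a marker of Vγ4 cells that also occur in lymph nodes and skin. γδ T cells are named by the variable segments of their receptor, and mouse Vγ6 chains usually pair with a δ chain that uses Trdv4.

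The pair are neighbours on chromosome 7, both on the forward strand of GRCm38. Cd163l1 spans chr7:140218267-140231145 and 5830411N06Rik spans chr7:140247284-140300736, with 16138 bases between them. Their longest coding sequences, 2976 and 3339 bases long, were identical at 69.7% of 2947 aligned positions. The longest stretch that both coding sequences share had 23 bases, shown in capitals because it bounds how far a sequencing read could fit both genes. It lies at chr7:140228575-140228597 in Cd163l1 and at chr7:140297861-140297883 in 5830411N06Rik.
Cd163l1 and 5830411N06Rik shared run: TCATGGGGCACAGTGTGTGACGA
No 31-base word of the Cd163l1 transcripts (0 of 3985) occurred in a 5830411N06Rik transcript. In the last 500 bases, where a 3′ library reads, the longest shared run was 12 bases.

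The promoters are printed because the pair, although adjacent, was found together in fewer cells than independent detection gives. Each window runs from 250 bases before to 50 bases after a transcription start, from RefSeq on GRCm38.p6. The Cd163l1 window is chr7:140218017-140218316. RefSeq has 3 overlapping windows for 5830411N06Rik, and the middle one, chr7:140247128-140247427, is shown.
Cd163l1 promoter: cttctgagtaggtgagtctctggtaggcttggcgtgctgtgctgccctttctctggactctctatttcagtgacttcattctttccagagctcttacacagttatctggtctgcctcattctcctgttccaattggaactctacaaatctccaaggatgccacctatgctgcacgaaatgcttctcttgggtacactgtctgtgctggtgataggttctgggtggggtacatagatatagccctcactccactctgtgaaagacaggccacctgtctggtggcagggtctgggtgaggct
5830411N06Rik promoter: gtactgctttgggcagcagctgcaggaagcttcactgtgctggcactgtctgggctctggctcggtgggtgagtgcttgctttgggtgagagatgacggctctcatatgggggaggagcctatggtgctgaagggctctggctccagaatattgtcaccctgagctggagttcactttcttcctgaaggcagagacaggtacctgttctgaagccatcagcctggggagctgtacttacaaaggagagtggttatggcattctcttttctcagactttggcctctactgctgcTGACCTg
Both strands were searched for AGGTCA, a motif of nuclear receptors, and for TGANTCA, which AP-1 factors bind. Each of the 3 windows of 5830411N06Rik held 1 AGGTCA on the reverse strand. The match printed as TGACCT in capitals also lies in 1 of the other windows, and the remaining window holds one at another place. The Cd163l1 window held none, and neither gene's windows held TGANTCA. Of 27025 mouse promoter windows of this length, 16.0% held AGGTCA and 7.93% held TGANTCA, so these matches are a description of the letters and not of binding.

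The TIL library held 13245 barcodes and 94953893 unique molecular identifiers (UMIs, 1 per captured transcript), and the IEL library held 9398 barcodes and 69414155 UMIs. A filter on genes (500 or more), UMIs (1000 or more) and mitochondrial share (10% or less) kept 12407 TIL and 9128 IEL cells. They were clustered together without the Scart genes or the receptor segments, and clusters were named from markers. Of these cells 11753 in TIL and 9084 in IEL were γδ T-like, with a median of 6387 and 6854 UMIs. Trdc, the δ constant segment, was detected in 99.1% (TIL) and 96.8% (IEL) of γδ T-like cells. Trac, the α constant segment, was detected in 37.2% and 77.8%, although the label names γδ T lymphocytes. The libraries shared 33 barcodes, and leaving these cells out turned no direction given here.

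Both Scart genes were far higher in TIL than in IEL, where they were nearly absent. Cd163l1 had 54668 UMIs in TIL and 279 in IEL, or 634 and 4.09 CPM (counts per 1000000 UMIs). TIL exceeded IEL by 7.28 on the log2 scale (95% interval 7.11 to 7.45), or 155-fold (138 to 175). This value moved with the choice of cells, to 8.47 under a stricter cell filter and 5.44 when γδ T cells were picked cell by cell. Among γδ T-like cells, 76.7% in TIL and 0.892% in IEL carried Cd163l1, with at most 47 UMIs in a TIL cell and 14 in an IEL cell. 5830411N06Rik had 2307 UMIs in TIL and 20 in IEL, or 26.8 and 0.293 CPM. It was higher in TIL by 6.51 on the log2 scale (5.88 to 7.23), or 91.3-fold (59.0 to 150), and by 4.86 with the cell by cell choice. It was found in 5.88% of TIL and 0.0771% of IEL cells, with at most 22 and 6 UMIs in a cell.

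Ordered by ratio among 6327 genes with at least 20 CPM in either library, Cd163l1 was number 42 and 5830411N06Rik number 63 from the top. In this comparison 699 genes (11.0%) exceeded their IEL level 2-fold or more in TIL, with an interval that excludes equal levels, and 874 (13.8%) were lower by as much. Trdv4 was higher by 5.97 on the log2 scale, close to the Scart genes in size. When each cell was thinned to 2000 UMIs at random, leaving out 82 TIL and 73 IEL cells, Cd163l1 was detected in 56.8% (TIL) and 0.536% (IEL). The thinned share of 5830411N06Rik was 3.61% in TIL and 0.0400% in IEL.

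Nearly all UMIs of both genes lay in clusters with an IL-17 programme, which made up most TIL and few IEL cells. In 6 of the γδ T-like clusters at least 5 of 9 IL-17 markers, such as Il17a and Il23r, had at least 50 CPM. These clusters held 9918 TIL and 59 IEL cells. Within them Cd163l1 had 724 CPM (718 to 730) in TIL and 610 CPM (532 to 696) in IEL, with a UMI in 88.4% and 81.4% of cells. 5830411N06Rik had 29.9 CPM (28.6 to 31.1) in TIL and 53.2 CPM (32.0 to 83.0) in IEL, with a UMI in 6.51% and 10.2%. The 59 IEL cells carried 218 of the 279 IEL UMIs of Cd163l1 and 19 of the 20 of 5830411N06Rik.

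In the cytotoxic clusters, named by granzymes, perforin and NK receptors, both genes were low. Cd163l1 had 29.5 CPM in the 1103 TIL cells and 0.891 CPM in the 8906 IEL cells, with a UMI in 14.0% and 0.359%. 5830411N06Rik had 1.01 CPM in TIL and 0.0151 CPM in IEL, with a UMI in 0.635% and 0.0112%. Free RNA in the droplets can give UMIs in cells that do not express a gene. For comparison, the 260 macrophage and monocyte-like TIL cells (median 6919 UMIs) had a Cd163l1 UMI in 39.6%, at 177 CPM, and a 5830411N06Rik UMI in 2.69%, at 5.26 CPM. Trdc was found in 63.8% of these macrophage and monocyte-like cells, and 7 of 8 γδ T markers counted in them, so they held T cell transcripts too. Shares in TIL cytotoxic cells (median 5685 UMIs) were below those levels, no expression is read from them, and the part of free RNA was not tested. After thinning, the shares of Cd163l1 were 5.0% in cytotoxic and 19.4% in macrophage and monocyte-like TIL cells, leaving out 11 and 42 cells.

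The ratio of the genes' UMIs differed between clusters. There were 23.7 Cd163l1 UMIs for each 5830411N06Rik UMI over all TIL γδ T-like cells (22.7 to 24.7), 29.3 (14.0 to 73.8) in the cytotoxic clusters and 33.6 (19.5 to 63.6) in the macrophage and monocyte-like cells. Those 3 intervals overlap. In cluster 7 of TIL, in which all 5 recirculation markers, S1pr1 and Klf2 among them, counted, the ratio was 1.88 (1.35 to 2.63). There 5830411N06Rik had 15.1 CPM and a UMI in 5.20% of 711 cells, above its level in the macrophage and monocyte-like cells, whereas Cd163l1 had 28.4 CPM. Cluster 3 had a ratio of 8.69 (8.26 to 9.14) and cluster 5 one of 165 (139 to 197).

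Across the IL-17 clusters of TIL the genes peaked in different places. Cd163l1 was highest in cluster 8 with 987 CPM (945 to 1031) and cluster 5 with 925 CPM (913 to 937). Clusters 3, 17, 4 and 1 followed with 768, 606, 556 and 425 CPM. The intervals of neighbours in this order did not overlap. 5830411N06Rik was highest in cluster 3, with 88.3 CPM (84.2 to 92.6) and a UMI in 15.5% of cells, against 24.7 CPM (18.4 to 32.5) in cluster 8. Clusters 1, 4, 17 and 5 had 16.4, 10.1, 6.70 and 5.60 CPM, and the value of cluster 17 came from 2 cells. The intervals of clusters 8 and 1 overlapped, and the interval of cluster 17 overlapped those of clusters 4 and 5, which did not overlap each other. Cluster 3 held 73.7% of all TIL UMIs of 5830411N06Rik and 27.0% of those of Cd163l1, while cluster 5 held 5.77% and 40.2%. The plot of levels by cluster sets both orders side by side.

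**Figure D1:**
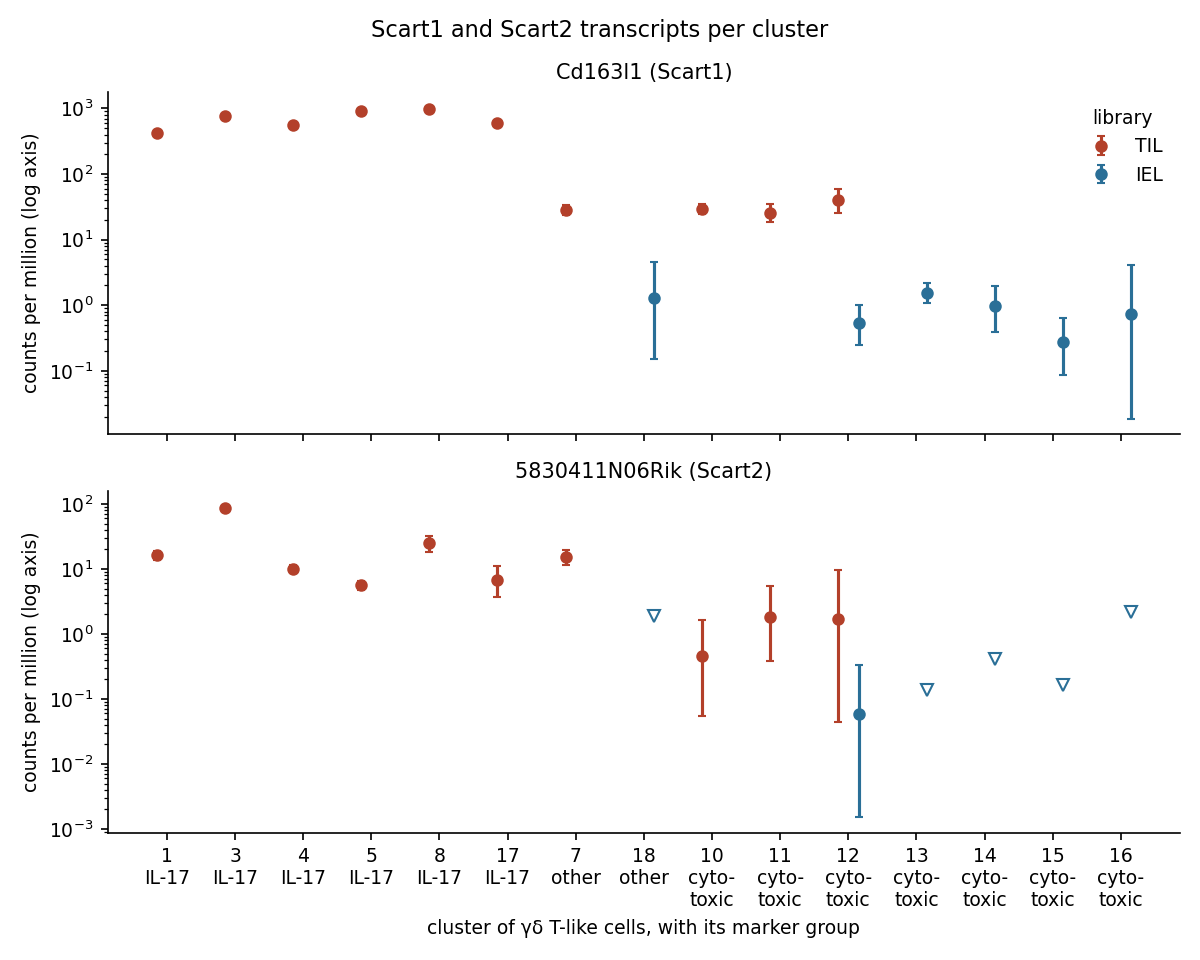
CPM (log axis) of Cd163l1 (top) and 5830411N06Rik (bottom) in each γδ T-like cluster, TIL left of IEL, for clusters with at least 50 cells of a library; bars are exact Poisson 95% intervals and open triangles mark the level of 3 UMIs where none was found. Cd163l1 lies between 425 and 987 CPM in all IL-17 clusters of TIL, while 5830411N06Rik stands out in cluster 3 with 88.3 CPM.

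In single TIL cells the genes were found together less often than their separate frequencies give. Of 11753 cells, 8705 (74.1%, 73.3 to 74.9) had a UMI of Cd163l1 only and 378 (3.22%, 2.90 to 3.55) of 5830411N06Rik only. Both genes were found in 313 cells (2.66%, 2.38 to 2.97) and neither in 2357 (20.1%, 19.3 to 20.8). Independent detection would give 530.2 cells with both, so the observed number was 0.590 of that (0.527 to 0.658). Requiring at least 2 UMIs of each gene left 149 cells with both and a ratio of 0.475 (0.402 to 0.557), and thinning to 2000 UMIs gave 0.431. In IEL, 79 cells had Cd163l1 only, 5 had 5830411N06Rik only, 2 had both and 8998 had neither.

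Seen from 5830411N06Rik, Cd163l1 was present in 45.3% (41.5 to 49.1) of the 691 TIL cells with a 5830411N06Rik UMI and in 78.7% (77.9 to 79.5) of those without. Their median depths were 5950 and 6406.5 UMIs. Within the IL-17 clusters the shares were 47.2% and 91.3%. Seen from Cd163l1, 5830411N06Rik was present in 3.47% (3.10 to 3.87) of cells with a Cd163l1 UMI and in 13.8% (12.5 to 15.2) of those without, at median depths of 6657 and 5584 UMIs. Within the IL-17 clusters these were 3.48% and 29.7%. Along the 5830411N06Rik counts the share with Cd163l1 was 78.7% at 0 UMIs, 54.2% at 1, 45.6% at 2, 40.2% at 3 to 5 and 38.1% (43 of 113 cells) at 6 or more.

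Among the 149 cells with at least 2 UMIs of each gene, 91 lay in cluster 3 and 28 in cluster 5. Their median depth was 8417 UMIs, against 6716 in cells with Cd163l1 only and 5374 in cells with 5830411N06Rik only. Their median doublet score was 0.0753, against 0.0692 and 0.0451. The part of droplets with 2 cells in this class was not tested.

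**Figure D2:**
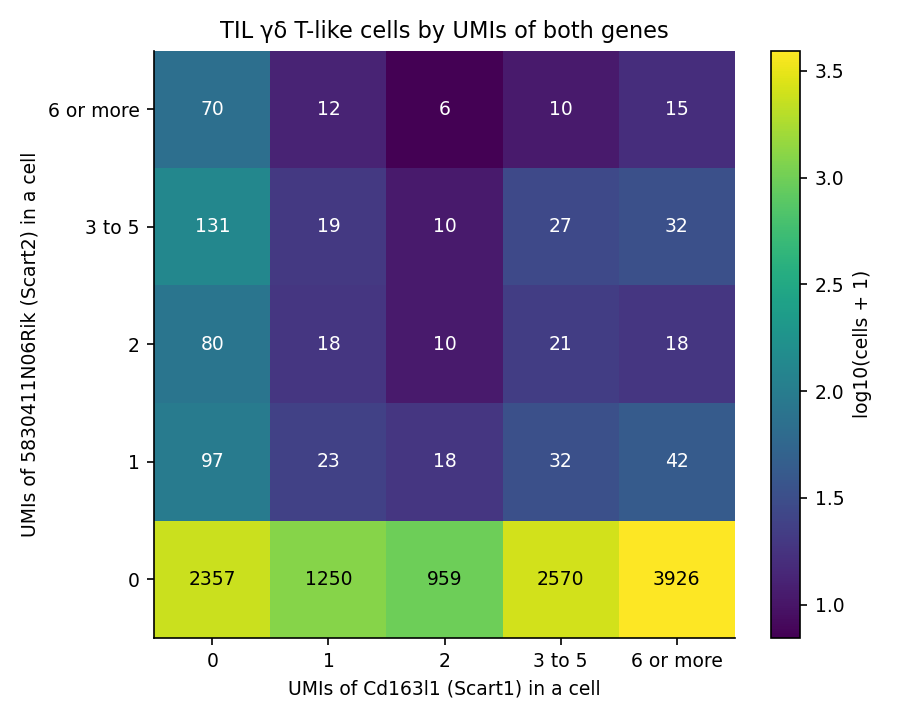
Number of TIL γδ T-like cells (in each tile, colour as log10 of cells + 1) by UMIs of Cd163l1 (x axis) and of 5830411N06Rik (y axis). The 70 cells with 6 or more 5830411N06Rik UMIs and no Cd163l1 UMI outnumber the 43 with any, while 3926 cells have 6 or more Cd163l1 UMIs and no 5830411N06Rik UMI.

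Over all TIL γδ T-like cells, receptor segments separated with the Scart genes. Trdv4 had a UMI in 22.4% of TIL cells with 0 Cd163l1 UMIs, 60.9% with 1, 70.8% with 2, 73.8% with 3 to 5 and 78.3% with 6 or more. Along 5830411N06Rik it went the other way, at 64.0%, 35.4%, 19.7%, 22.4% and 14.2% over the same steps. Tcrg-V6, the γ variable segment of Vγ6 chains, had a UMI in 1.43%, 4.54%, 6.78%, 8.27% and 12.7% of cells along Cd163l1. Along 5830411N06Rik it had 7.96%, 4.25%, 0.680%, 2.74% and 2.65%. Cells at 0 Cd163l1 UMIs included those of clusters without the IL-17 programme. The IL-17 clusters held 806 cells with neither gene, of which 69.4% had a Trdv4 UMI and 4.47% a Tcrg-V6 UMI. Of their 7428 cells with at least 2 Cd163l1 UMIs and no 5830411N06Rik UMI, 76.6% and 10.5% did.

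Tcrg-V4, the γ variable segment of Vγ4 chains, was sparse everywhere. Along 5830411N06Rik it had a UMI in 1.41%, 4.25%, 3.40%, 4.11% and 7.08% of cells, and along Cd163l1 in 2.41%, 1.51%, 0.798%, 1.09% and 1.59%. A 3′ library reads the constant end of a receptor transcript, so a cell without a variable-segment UMI may still use that segment. Median depth was 5584 UMIs at 0 and 7480 at 6 or more Cd163l1 UMIs, and 6406.5 and 7486 along 5830411N06Rik, so both upper steps were the deeper ones.

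**Figure D3:**
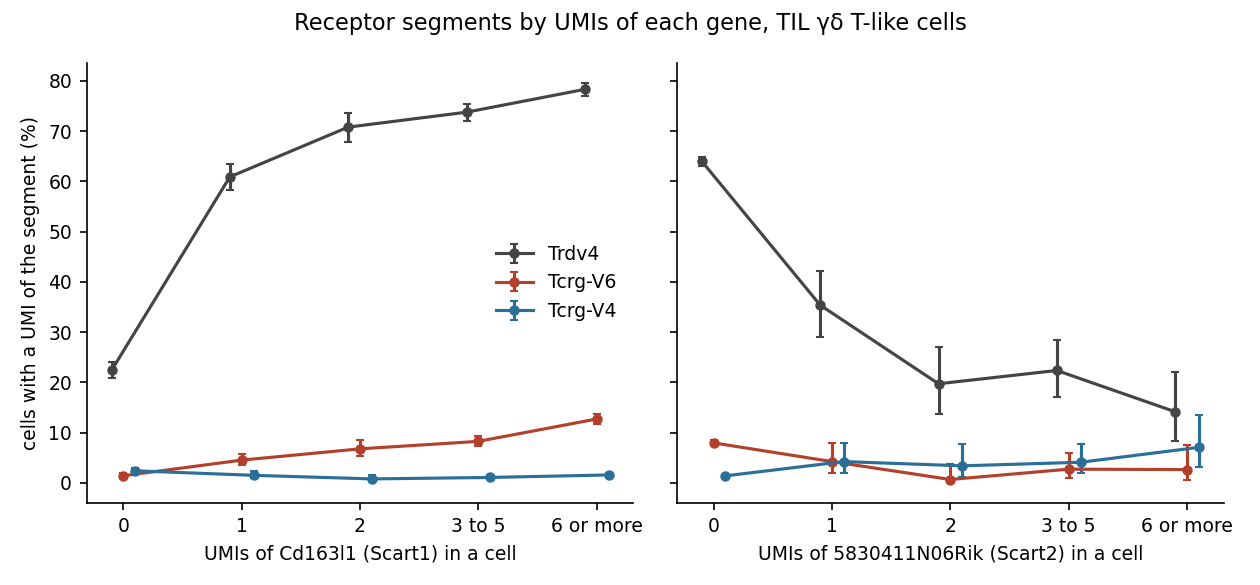
Percent of TIL γδ T-like cells with a UMI of Trdv4, Tcrg-V6 or Tcrg-V4 (y axis) by UMIs of Cd163l1 (left) or 5830411N06Rik (right) in the cell; bars are exact binomial 95% intervals. Trdv4 reaches 78.3% at the highest Cd163l1 step and 14.2% at the highest 5830411N06Rik step. All γδ T-like clusters are included.

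For comparisons across genes, TIL γδ T-like cells were sorted into 4 classes by their Scart UMIs. The Scart1-only class had at least 2 Cd163l1 UMIs and no 5830411N06Rik UMI (7455 cells), and the Scart2-only class the reverse (281 cells). The both class had at least 2 of each (149 cells), and the neither class had none (2357 cells). UMIs were summed per class, and genes reaching 20 CPM in one class or the other are called higher or lower when they differed 2-fold or more with an interval that excludes equal levels. Cells of a class come from 1 library and are not replicates, so no p-value is given.

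Trdv4 had 303 CPM in Scart1-only cells, 13.5 CPM in Scart2-only cells, 168 CPM in both and 116 CPM in neither. The Scart1-only level was higher than the Scart2-only level by 4.49 on the log2 scale (3.91 to 5.15), and 76.4% against 5.34% of cells had a UMI. Thinned to 2000 UMIs, the shares were 41.0% in Scart1-only, 2.14% in Scart2-only, 21.3% in both and 13.8% in neither cells. The both class thus lay between the other Scart classes.

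Tcrg-V6 had 876 UMIs in Scart1-only cells (15 CPM, 10.5% of cells) and 0 UMIs in Scart2-only cells, where 0 of 281 cells allows a share of up to 1.30% (exact upper limit). Taking 3 UMIs over the Scart2-only class as the limit that a count of 0 allows, Tcrg-V6 was at least 3.09 higher on the log2 scale in Scart1-only cells. It had 8.38 CPM in the both class and 2.72 CPM in neither. Tcrg-V4 ran the opposite way, with 97 UMIs (1.66 CPM, 1.23% of cells) in Scart1-only cells and 13 UMIs (7.61 CPM, 4.27%) in Scart2-only cells. That difference of -2.20 (-3.04 to -1.24) rests on these 13 UMIs, and the both and neither classes had 4.89 and 3.9 CPM. Tcrg-V1 had 2.31 CPM in Scart1-only and 1.17 CPM in Scart2-only cells, with an interval that includes equal levels. The thinned shares of Tcrg-V4 and Tcrg-V6, at most 3.16%, are too near single UMIs to order the classes.

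The constant segments differed as well. Trdc had 4459 CPM in Scart1-only cells, 802 CPM in Scart2-only cells, 2588 CPM in both and 2440 CPM in neither, a Scart1-only over Scart2-only difference of 2.47 (2.40 to 2.55). Nearly all cells of both classes had a Trdc UMI, 99.9% and 94.0%, so the difference was in UMIs per cell. Along the 5830411N06Rik counts Trdc was 4089 CPM at 0 UMIs, 2756 at 1, 1987 at 2, 1562 at 3 to 5 and 1218 at 6 or more. Tcrg-C1 had 898 CPM in Scart1-only and 304 CPM in Scart2-only cells (1.56, 1.44 to 1.69). Tcrg-C2, a near-identical copy of Tcrg-C1 whose reads may be shared with it, had 137 and 208 CPM, a difference of -0.61 (-0.76 to -0.45). Trac had 92.1 CPM in Scart1-only and 68.5 CPM in Scart2-only cells. Of the 5 receptor segments with enough counts, 3 were higher in Scart1-only cells (Trdv4, Trdc and Tcrg-C1) and none was lower. Their median of 1.56 compares with 0.10 over all genes.

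Both Scart classes expressed the IL-17 programme and differed in its cytokines. Il17a had 5410 CPM in Scart1-only cells, 2788 CPM in Scart2-only cells, 4702 CPM in both and 1615 CPM in neither, with UMIs in 89.98% and 82.2% of Scart1-only and Scart2-only cells. The difference of 0.96 (0.915 to 0.998) is under 2-fold, and 1 cell held 17.5% of the Scart2-only UMIs. Il17f, the second IL-17 cytokine, had 179 CPM in Scart1-only, 968 CPM in Scart2-only, 578 CPM in both and 221 CPM in neither cells. It was lower in Scart1-only cells by -2.44 (-2.51 to -2.36), with a UMI in 10.2% of them against 46.6% of Scart2-only cells. After thinning the shares were 5.46% and 33.3%. The thinned shares of Il17a were 75.4% and 63.0%. Along the 5830411N06Rik steps, 9.77%, 26.9%, 32.0%, 46.6% and 54.0% of cells had an Il17f UMI. Along the Cd163l1 steps Il17a was 1752 CPM at 0 UMIs, 3615 at 1, 4227 at 2, 5570 at 3 to 5 and 5540 at 6 or more. Il17f was highest at 1 Cd163l1 UMI with 426 CPM and lowest at 6 or more with 133 CPM. From 3 to 5 UMIs to 6 or more, Il17a thus changed little in CPM. Il17f was lower in CPM, while 10.4% and 10.3% of the cells at these steps had an Il17f UMI.

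Il23r, the receptor for IL-23, had 44.9 CPM in Scart1-only and 48.6 CPM in Scart2-only cells (-0.11, -0.43 to 0.22). It was thus within 2-fold between these classes, and the neither class had 19.0 CPM.

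**Figure D4:**
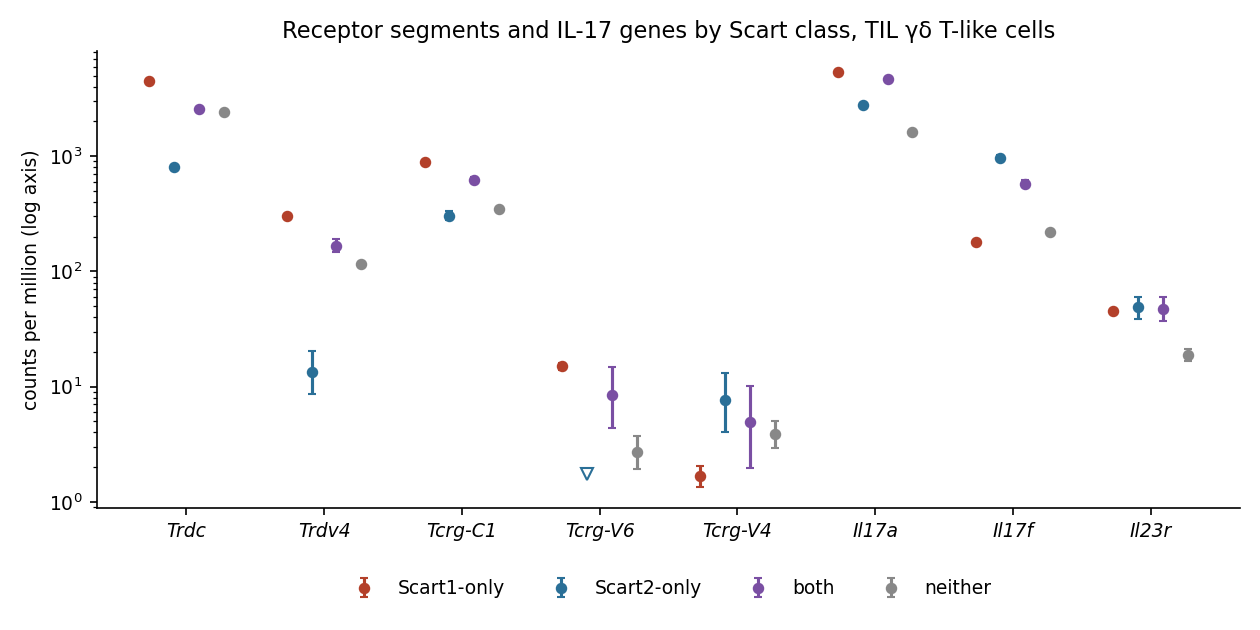
CPM (log axis) of receptor segments and IL-17 genes in TIL cells of the Scart1-only, Scart2-only, both and neither classes; bars are exact Poisson 95% intervals and the open triangle marks the level of 3 UMIs where none was found. For Trdc, Trdv4, Tcrg-C1, Il17a and Il17f the both class lies between the Scart1-only and Scart2-only classes.

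Over all 5579 genes with at least 20 CPM in either class, 206 (3.69%) were higher and 108 (1.94%) lower in Scart1-only than in Scart2-only cells. Genes furthest above included Gzma, the granzyme A protease of cytotoxic granules, with 3985 CPM in Scart1-only and 104 CPM in Scart2-only cells (5.26, 5.05 to 5.48). The shares of cells lay closer, as 60.4% of Scart1-only and 43.2% of Scart2-only cells of the IL-17 clusters had a Gzma UMI. Nrgn, which encodes the calmodulin-binding protein neurogranin, had 96.3 and 1.17 CPM (6.36), and Tff1, a trefoil peptide of mucosa, had 58.2 and 1.76 CPM (5.05). Mmp9, a gelatinase, had 52.8 CPM in Scart1-only cells and 0 UMIs in Scart2-only cells, at least 4.91 higher. Spp1 (osteopontin), Lum (lumican, a matrix proteoglycan), Gstm5, Rbm24, Spry1, Klrb1b (an NK receptor), Clnk (a signalling adaptor) and Trdv4 completed the 12 genes named above, at 4.49 to 4.85. Except for Gzma, Spp1 and Trdv4, these rest on at most 5 UMIs in the Scart2-only class.

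Genes furthest below 0 were led by Fam169b, with 1.10 CPM in Scart1-only and 39.2 CPM in Scart2-only cells (-5.16). Lrrk2, a kinase, had 0.907 and 31 CPM (-5.10). Lilr4b and the inhibitory receptor gene Lilrb4a, near-identical copies that counting may split unevenly, were at -4.38 and -4.01. Fyb, an adaptor of T cell adhesion, had 22.5 CPM in Scart1-only and 214 CPM in Scart2-only cells (-3.25), with a UMI in 10.4% and 59.1% of cells. S1pr1, the receptor for exit from tissue, had 16.0 and 142 CPM (-3.14, 8.56% and 44.5% of cells). Prss12, a protease that itself carries SRCR domains, had 10.8 and 91.9 CPM (-3.08). Stom, Ms4a4b, Cd9, Tcf7 and Cd55 were at -3.31 to -2.77.

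Genes were also counted by list, and these counts compare with 3.69% higher and 1.94% lower over all genes. Of 8 cytotoxic genes with enough counts, 7 were higher in Scart1-only cells and none lower, with a median of 2.06 against 0.10 over all genes. Gzmb, granzyme B, had 2356 CPM in Scart1-only and 586 CPM in Scart2-only cells (2.01), and Gzma was given above. Ccl5, a chemokine, had 290 and 67.3 CPM (2.11), and 1 cell held 33.0% of its Scart2-only UMIs.

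Of 5 growth and repair factors, 2 were higher and 1 lower. Their median of 0.96 was the value of Il17a, which is also in this list and was given above. Areg, the epidermal growth factor receptor ligand amphiregulin, had 7150 CPM in Scart1-only and 613 CPM in Scart2-only cells (3.54, 3.46 to 3.63). Hbegf, another ligand of that receptor, had 104 and 6.44 CPM (4.02). Il22, a cytokine that acts on epithelium, had 73.2 CPM in Scart1-only and 471 CPM in Scart2-only cells (-2.69), but 8 Scart2-only cells carried it and 1 of them held 67.8% of its UMIs. In Scart1-only cells 1.85% carried Il22, and 1 cell held 29.0% of the UMIs. With classes set at 3 UMIs its direction turned, at 1.5.

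Of 18 homing and residence genes, 4 were higher (Gpr55, Ccr1, Itga4 and Ccr9) and 3 lower (S1pr1, Ccr4 and Ccr6), with a median of -0.08. Gpr55, a lysolipid receptor, had 41.2 CPM in Scart1-only and 6.44 CPM in Scart2-only cells (2.68). Ccr6, a chemokine receptor of IL-17 cells, had 9.53 and 55.6 CPM (-2.54). Of 22 transcription factors, Zbtb16 (PLZF, the factor of innate-like T cells) and Prdm1 (Blimp-1) were higher, by 1.82 and 2.17. Klf2, which drives S1pr1, and Tcf7 (TCF1, a factor of naive and memory T cells) were lower, at -1.64 and -2.88. The median of these factors was 0.44.

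Among 21 genes of the IL-17 programme 2 were higher (Il1r1 and Zbtb16) and 3 lower (Il17f, Il22 and Ccr6), with a median of 0.27. Of 16 cytokine receptors Il1r2, Il1r1 and Il21r were higher, by 3.25, 1.22 and 1.16, and none was lower (median 0.18). Il1r2 is the decoy receptor for IL-1. Of 5 inhibitory receptors Lag3 and Havcr2 (TIM-3) were higher, by 4.16 and 1.73, and Lilrb4a was lower (median 0.76). Pdcd1 (PD-1) had 642 CPM in Scart1-only and 379 CPM in Scart2-only cells (0.76), under 2-fold.

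Of the other members of the SRCR and scavenger receptor family, 3 of 20 had enough counts. Prss12 was lower, and Lgals3bp and Scarb2 were within 2-fold at 0.60 and -0.13. None of 3 genes of the αβ receptor and none of 3 cell cycle genes passed 2-fold, with medians of 0.26 and 0.71. Of 14 genes that respond to tissue dissociation only Atf3 passed, at -1.17, with a median of -0.06.

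Markers of other cell types were summed in each class. All 5 erythroid markers had UMIs, and the list summed to 1677 CPM in Scart1-only and 3487 CPM in Scart2-only cells. In the Scart2-only class 1 cell held 97% of the UMIs of Hbb-bs. The 5 plasma cell markers summed to 209 and 52.1 CPM, led by Sdc1 with 136 and 41.5 CPM, while Jchain and Mzb1 were at 0 in Scart2-only cells. The 10 macrophage and monocyte markers summed to 22.9 and 23.4 CPM, with C1qc, Csf1r, Adgre1 and Ms4a7 at 0 in Scart2-only cells. Neutrophil markers summed to 45.3 and 60.3 CPM, dendritic cell markers to 65.4 and 54.4 CPM and B cell markers to 20.4 and 33.9 CPM, where Cd79b was the only B cell marker found in Scart2-only cells. Endothelial markers summed to 58.5 and 53.8 CPM, led by Pecam1, epithelial markers to 7.97 and 5.27 CPM and fibroblast markers to 3.15 and 1.76 CPM. Mast cell markers summed to 1.83 CPM in Scart1-only cells and were at 0 in Scart2-only cells. The part of these other cells in the differences was not tested.

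The classes also differed in their clusters. Of Scart1-only cells 37.5% lay in cluster 5, 27.8% in cluster 3 and 19.1% in cluster 4. Of Scart2-only cells 81.5% lay in cluster 3 and 7.47% in cluster 1, and 10 cells lay in the recirculation-marked cluster 7. Within cluster 3 alone, 2073 Scart1-only and 229 Scart2-only cells could be compared. Of 5528 genes 106 (1.92%) were higher and 71 (1.28%) lower in Scart1-only cells there, and 74 and 58 of these were among the genes called over all clusters. The IL-17 clusters held 7428 of the 7455 Scart1-only and 271 of the 281 Scart2-only cells, so they largely repeat the comparison over all clusters. Within them 204 (3.66%) of 5581 genes were higher and 105 (1.88%) lower.

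The receptor segments, which had been left out of the clustering, kept their distance inside cluster 3. Trdv4 had 269 CPM in Scart1-only and 14.1 CPM in Scart2-only cells (4.25, 3.60 to 4.98), Trdc 3515 and 726 CPM (2.28) and Tcrg-C1 1000.02 and 310 CPM (1.69). Tcrg-V6 had 17.3 CPM in Scart1-only cells and 0 UMIs in Scart2-only cells, at least 2.96 higher. Tcrg-V4 had 1.37 and 9.68 CPM (-2.83, -3.92 to -1.69). Il17f had 62.6 and 745 CPM (-3.57), while Il17a was nearly even at 1897 and 1714 CPM (0.15). Clnk (4.92), Klrb1b (4.38), Fam169b (-5.37), Lrrk2 (-4.40), Lilr4b (-4.50) and Fyb (-3.19) were at least 4-fold apart in this cluster too.

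Other distances shrank within the cluster, for genes that, unlike the receptor segments, were mostly open to use in the clustering. The part of the clustering in this contrast was not tested. Gzma had 459 CPM in Scart1-only and 108 CPM in Scart2-only cells (2.09), with a UMI in 49.4% and 44.1% of them. Areg had 2095 and 448 CPM (2.22). Nrgn, Tff1, Mmp9, Gstm5, Lum, Spp1, Rbm24, Spry1, Hbegf and Lag3 were below 20 CPM in both classes of cluster 3, so their UMIs in Scart1-only cells lay mostly in other clusters. S1pr1 stood at -1.96, Prss12 at -1.97 and Tcf7 at -1.76. Of 6 cytotoxic genes 4 were higher in Scart1-only cells of this cluster and none lower, with a median of 1.56 against 0.08 over all genes.

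**Figure D5:**
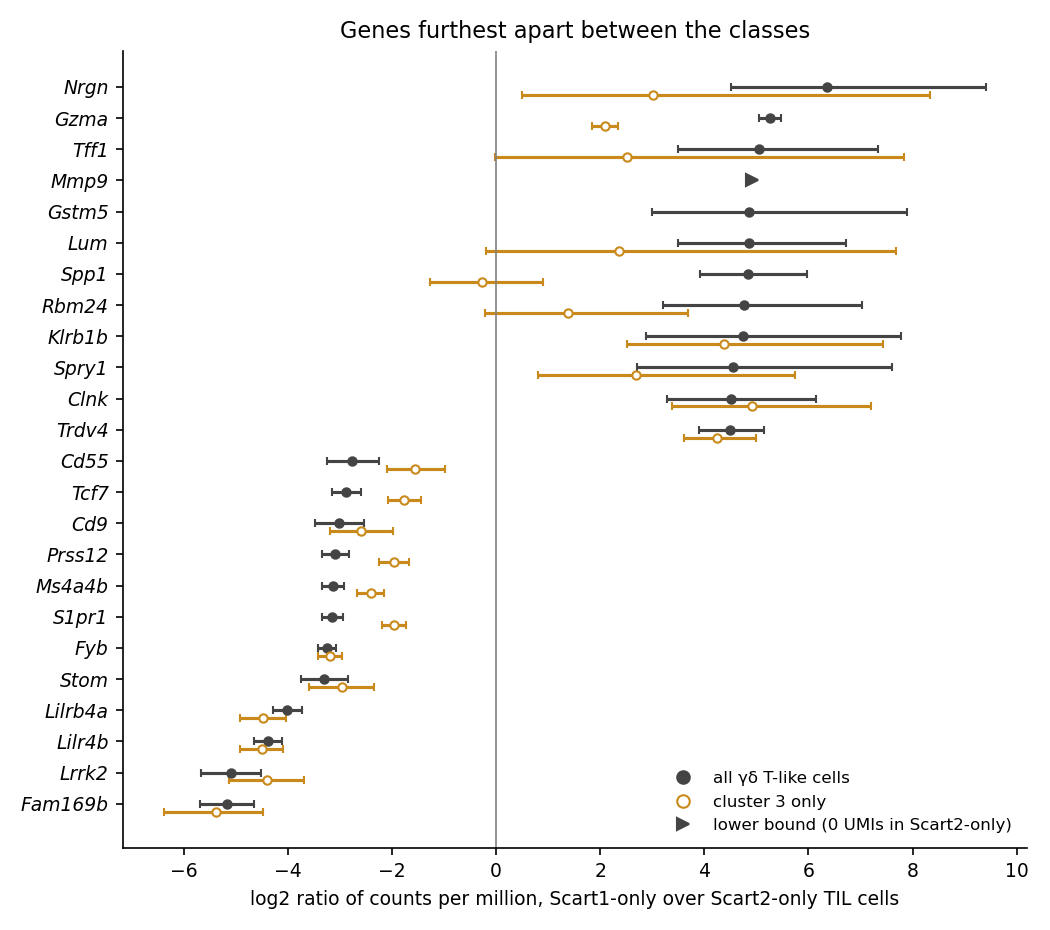
Log2 ratio of CPM, Scart1-only over Scart2-only TIL cells, for the 12 genes furthest apart each way over all γδ T-like cells (filled) and in cluster 3 alone (open, left out for Mmp9 and Gstm5, which had 0 UMIs in its Scart2-only cells); bars are exact 95% intervals. Trdv4, Clnk, Klrb1b, Fyb and both Lilr genes lie at similar values in cluster 3, while Gzma is at 2.09 and Spp1 at -0.28 there.

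Set against all cells with neither gene, most genes of the IL-17 programme were higher in both Scart classes, which did not hold within the IL-17 clusters. These comparisons share the neither cells, of which 25.2% lay in the recirculation-marked cluster 7 and 23.6% in the cytotoxic cluster 10. Of 5744 genes 246 (4.28%) were higher and 235 (4.09%) lower in Scart1-only cells, including 16 of 21 IL-17 programme genes higher and 1 (Sox4) lower, and 8 of 12 cytotoxic genes lower with none higher. Of 5688 genes 228 (4.01%) were higher and 293 (5.15%) lower in Scart2-only cells, including 15 of 22 IL-17 programme genes higher and 1 (Sox4) lower, and 11 of 12 cytotoxic genes lower with 1 (Klrk1) higher. The IL-17 medians were 1.56 for Scart1-only and 1.46 for Scart2-only cells, against 0.06 and -0.04 over all genes. Erythroid markers summed to 1677 CPM in Scart1-only, 3487 CPM in Scart2-only and 966 CPM in neither cells, and plasma cell markers to 209, 52.1 and 410 CPM; their part was not tested.

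Restricted to the IL-17 clusters, where 806 neither cells remained, fewer genes set Scart1-only cells apart. Of 5534 genes 59 (1.07%) were higher and 18 (0.325%) lower, and in cluster 3 alone 30 (0.536%) and 26 (0.464%) of 5602. Trdv4 had 304 CPM in Scart1-only and 314 CPM in neither cells (-0.044, -0.12 to 0.03), and Il23r 45.1 and 50.8 CPM (-0.17). Tcrg-C1 had 901 and 442 CPM (1.03), and Il17f 180 and 602 CPM (-1.74). Of 21 IL-17 programme genes 1 was higher (Il22) and 2 lower (Il17f and Ccr6), with a median of 0.27. Of 7 cytotoxic genes 3 were higher (Ccl5, Gzma and Gzmb) and none lower, with a median of 0.76, the reverse of the direction over all clusters. In cluster 3 the 4 erythroid markers with enough counts were all higher in Scart1-only cells (median 4.43), and over the IL-17 clusters none of 4 was called (median -0.48). The 8 genes named furthest above the neither class were Il22, Gstm5, Mmp9, Lrrc17, Rbm24, Hbegf, Tnfsf11 and Crispld2, which within these clusters stood at 1.52 to 3.26. Tnfsf11 encodes the cytokine RANKL, and had 172 CPM in Scart1-only and 48.5 CPM in neither cells there (1.82).

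Scart2-only cells were also compared with the neither cells of these clusters. Of 5589 genes 120 (2.15%) were higher and 168 (3.01%) lower, and in cluster 3 alone 94 (1.67%) and 163 (2.90%) of 5618. Trdv4 had 13.8 CPM in Scart2-only and 314 CPM in neither cells (-4.51, -5.17 to -3.92), and Trdc 784 and 4965 CPM (-2.66). Tcrg-C2 had 208 and 70.6 CPM (1.56). Of 21 IL-17 programme genes 3 were higher (Il18r1, Il22 and Ccr6) and 1 lower (Zbtb16), with a median of 0.22. Of 6 cytotoxic genes 4 were lower and none higher, with a median of -1.46. In cluster 3 all 5 erythroid markers were higher in Scart2-only cells (median 5.20), and over the IL-17 clusters none of 4 was called (median 0.68). As given above, 1 cell held most Hbb-bs UMIs of the whole Scart2-only class. The part of erythroid RNA in these differences was not tested. The 8 genes named furthest above were Il22, Lrrk2, Stom, Slamf1, Pard3, Nav2, Stmn2 and Pxdc1. Apart from Il22, whose UMIs lie mostly in 1 cell, they stood at 1.79 to 3.37 within these clusters. Slamf1, a receptor that binds itself on lymphocytes, had 39.0 CPM in Scart2-only and 6.16 CPM in neither cells (2.66).

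Cells with at least 2 UMIs of each gene resembled Scart1-only cells in number of differences more than Scart2-only cells. Of 5520 genes 47 (0.851%) were higher and 38 (0.688%) lower in the both class than in Scart1-only cells. Of 5442 genes 94 (1.73%) were higher and 37 (0.680%) lower than in Scart2-only cells. These comparisons differ in class size and share the both cells, and the difference between them was not tested. Prss12 had 66.3 CPM in both and 10.8 CPM in Scart1-only cells (2.62), S1pr1 76.1 and 16.0 CPM (2.25) and Fyb 122 and 22.5 CPM (2.44). Enah was furthest above, with 21.7 and 0.257 CPM (6.4).

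Likeness to each Scart gene was measured by Pearson's r of ln(1 + counts per 10000) over the 11753 TIL γδ T-like cells, among 7365 genes with a UMI in at least 5% of them. The cells share 1 library and differ in depth, so r is a description. The 10 genes most like Cd163l1 were Tmem176b (0.59), Tmem176a (0.58), S100a6 (0.58), Cxcr6 (0.53), Lgals1 (0.52), Tcrg-C1 (0.52), Capg (0.50), Ckb (0.49), Icos (0.48) and Rora (0.47). For 5830411N06Rik they were weaker, led by Prss12 (0.24), Il17f (0.21), S1pr1 (0.20) and Ldlrad4 (0.20). Fyb, Krt83, Actg1, Lilr4b, Kbtbd11 and Ccr6 followed at 0.17 to 0.15. The pair with each other had r = -0.20, 5830411N06Rik with Trdc -0.31 and with Trdv4 -0.19.

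In IEL, too, Trdv4 and Il17a were more frequent in cells with Cd163l1. Here 1 UMI was enough for a class, whereas the TIL classes needed 2, so the shares do not compare directly with those of TIL. Of the 79 IEL cells with Cd163l1 only, 26 had a single UMI of it. Trdv4 had a UMI in 45.6% (34.3 to 57.2) of the 79, against 1.98% of the 8998 cells with neither. Tcrg-V6 was found in 7.59% and 0.0445%, and Tcrg-V4 in 5.06% and 4.57%. Il17a had a UMI in 41.8% of the cells with Cd163l1 only and 0.311% of the neither cells, whereas Il17f was found in 0 of these 79 cells (exact upper limit 4.56%). Trac was found in 51.9% and 78.0%. Median depths were 6895 and 6855.5 UMIs. Of the 5 IEL cells with 5830411N06Rik only, 1 had a Tcrg-V4 UMI, none a Trdv4 or Tcrg-V6 UMI and 3 an Il17a UMI.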

How the data were processed

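The deposited files are UMI counts per gene and barcode, whole numbers without normalization. Per the submitters' processing notes, Cell Ranger 6.1.1 and the mouse build mm10 were used; whether counting used strand is not given in the sources used here. The extraction protocol in the labels names tumor tissue for both samples and no sort.

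Cells were kept from 500 genes and 1000 UMIs upward and up to 10% mitochondrial UMIs. Scanpy 1.11.5 with igraph 0.11.9 (2000 variable genes, 30 principal components, 15 neighbours, Leiden resolution 1.0) clustered both libraries together, without batch correction. Names of other cell types needed 3 markers at 50 CPM or more and 4-fold the rest, with 2 among the 10 leading genes. Clusters left after the other names were called γδ T-like if 3 γδ T markers had 50 CPM or more, without a fold limit. IL-17, cytotoxic and recirculation markers also counted at 50 CPM or more alone. Scrublet called 0 doublets and is taken as not having worked, so no cell was removed as a doublet. A cluster with doublet scores over 0.2 stayed unnamed.

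UMIs were summed per library or class in NumPy 2.4.6 and scaled to counts per 1000000 UMIs. SciPy 1.17.1 gave exact 95% intervals (conditional for ratios, Poisson for levels, Clopper-Pearson for shares), which cover counting error only, with 3 counts as the limit for a count of 0. Thinning drew 2000 UMIs per cell without replacement, 20 times. Genes named are the 12 furthest apart each way between the Scart classes, the 8 furthest above the neither class, the 10 most like each Scart gene, a few genes always given, and up to 4 of each list; some genes under this rule are not reported here. Ribosomal, mitochondrial, haemoglobin, immunoglobulin, sex-linked and unnamed model genes were left out of that rule. The members and lists were chosen with earlier results of these data known. RefSeq promoter windows of GRCm38.p6 were read with their letters as deposited there.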

Additional observations from a re-analysis of the deposited data

How the results depend on the processing

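No paired analysis was possible because each tissue has 1 library. With 1 library per tissue, depth limits single shares but not the spread between animals, which was not measured. Settings restricted to cluster 3 or to the IL-17 clusters, those leaving out shared barcodes, and every setting of the comparisons with the neither class were chosen after seeing the data. Where a value moved or turned, the cause was not tested.

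The log2 ratio of TIL over IEL for Cd163l1, 7.28, became 8.47 with a stricter cell filter, 6.98 with a looser one, 5.44 when γδ T cells were picked cell by cell and 6.89 over all passing cells. That of 5830411N06Rik, 6.51, became 4.86 cell by cell.

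In TIL, the shares with Cd163l1 only, 5830411N06Rik only, both and neither became 75.9%, 2.61%, 2.27% and 19.2% in cells of 5000 to 10000 UMIs, 64.2%, 2.81%, 1.27% and 31.7% at 2 UMIs of each, and 55.9%, 2.73%, 0.886% and 40.5% after thinning. Over all passing cells Cd163l1 only was 73.2% and neither 20.9%. In the IL-17 clusters Cd163l1 only was 85.4%, both 3.08% and neither 8.13%. The ratio of observed to independent co-detection was 0.475 at 2 UMIs and 0.431 after thinning.

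In IEL, Cd163l1 only and neither were 0.517% and 99.4% with the stricter filter, 2.04% and 97.8% cell by cell, and 0.531% and 99.4% after thinning. At 2 UMIs they were 0.594% and 99.4%, with both at 0. In the 59 IL-17 cells of IEL the 4 shares were 78.0%, 6.78%, 3.39% and 11.9%. Co-detection in IEL, 32.0 times the independent number from 2 cells, was 0.410 in the IL-17 clusters and 0 at 2 UMIs.

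The lower bound for Tcrg-V6 between the Scart classes, 3.09, was 2.63 cell by cell, 2.71 with classes at 3 UMIs and 2.32 in cells of 5000 to 10000 UMIs. Genes higher and lower in Scart1-only than Scart2-only cells numbered 513 and 250 at a floor of 5 CPM, 96 and 53 at 50 CPM, and 106 and 71 in cluster 3. Against neither cells, Scart1-only counts were 446 and 494 at 5 CPM, 162 and 114 at 50 CPM, 30 and 26 in cluster 3, and 59 and 18 in the IL-17 clusters. Scart2-only counts were 396 and 764, 142 and 127, 94 and 163, and 120 and 168 in the same settings. The highest cluster level was 916 CPM at resolution 0.5 and 1064 CPM at 2.0 for Cd163l1, and 64.9 and 185 CPM for 5830411N06Rik.

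The sign changed as follows, in some cases to values near 0. Between the Scart classes, Il22 was 1.5 with classes at 3 UMIs, the growth factor median -0.83 at 5 CPM and Spp1 -0.28 (-1.28 to 0.906) in cluster 3. For Scart1-only over neither, the inhibitory receptor median was 0.94 cell by cell, 1.41 at 50 CPM, 0.083 in cluster 3 and 0.48 in the IL-17 clusters. The cell cycle median was -0.043 at 5000 to 10000 UMIs. The cytotoxic median was 0.29 and 0.76, and the αβ receptor median 0.055 and 0.33, in cluster 3 and the IL-17 clusters. In the IL-17 clusters Il23r was -0.17 and Trdv4 -0.044, both with intervals that include equal levels. For Scart2-only over neither, the inhibitory median was 0.17 cell by cell and 0.67 at 50 CPM. In the IL-17 clusters Il23r was -0.029, with an interval that includes equal levels, the growth factor median -0.58 and the αβ receptor median 0.011.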

Other observations

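A cluster of 85 TIL cells outside the γδ T-like set, led by Tnfrsf4, Foxp3 and Cd4, had 241 CPM of Cd163l1 with a UMI in 47.1% of cells, and 32.7 CPM of 5830411N06Rik with a UMI in 15.3%. Its ratio of 7.37 Cd163l1 UMIs per 5830411N06Rik UMI (4.92 to 11.5) lay below the 33.6 (19.5 to 63.6) of the macrophage and monocyte-like cells. The part of free RNA in these values was not tested.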
